A study of Mus musculus with 28 samples.

Results

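The genes described here encode the proteins of the cytosolic ribosome. They were taken from the count table by symbol: names that begin with Rpl, Rps or Rplp and end in a number, with or without a single a or x. The rule found 75 of the 24015 genes in the table, 46 of the large subunit (including the 3 stalk genes Rplp0, Rplp1 and Rplp2) and 29 of the small subunit. Rpsa, Fau, Rps3a1 and Gnb2l1, among others, also encode parts of the ribosome but have other kinds of name, so they lie outside the rule.

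Each ribosome joins a small subunit, which reads the messenger RNA, to a large subunit, which forms peptide bonds, and most ribosomal proteins are used once per particle. Their transcripts are among the most abundant of a growing cell, and many begin with a run of pyrimidines, the terminal oligopyrimidine (TOP) tract, through which mTOR signalling controls their translation. Loss of 1 copy of some of these genes causes Diamond-Blackfan anemia in people, a failure of red cell production, and for this reason ribosomal protein dosage has been studied closely in blood formation.

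The measurements come from 28 RNA-seq libraries, each made from a pool of 100 sorted cells of mouse embryos with the genotype labelled 23GFP transgenic, a genotype that all 9 populations share. At E8.5 there were 3 libraries of endothelial cells (EC) and 4 of hemogenic endothelium (HE), the endothelium that gives rise to blood. E9.5 had EC, HE and cells labelled pro-HSC/HPC. E10.5 had pre-HSC I and pre-HSC II beside EC and HE, and each population of these later days had 3 libraries. The tissue label is AGM+VU for E10.5 and PAS+VU for the earlier days, with neither spelled out, so the day of development and the tissue label change together between E9.5 and E10.5. The sources used here give neither the sort gates nor what the transgene marks in each population. The series text speaks of biological replicates, but no label ties them to different litters or embryos. The p-values therefore measure the spread between these samples only, which may be technical.

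Totals ran from 16308918 to 31405603 counts per library, and 13935 to 16050 genes had at least 1 count. Levels below are CPM, a gene's counts relative to the scaled total of its library, with scaling by TMM, which sets the typical gene equal between libraries, with factors from 0.789 to 1.25. The labels were checked against markers: the summed level of 7 endothelial genes ran from 2893 to 3229 CPM in E10.5 EC and from 311 to 395 in pre-HSC II, while 7 hematopoietic genes summed to 8.81 to 11.3 CPM in E10.5 EC and 1158 to 1202 in pre-HSC II. The E8.5 EC libraries were the lowest of the EC and HE populations in the endothelial sum, with 1099 to 1302 CPM against 1648 to 2432 in E8.5 HE. Their hematopoietic sum, 37.4 to 44.8 CPM, lay within that of E8.5 HE, 29.3 to 47.2. These markers therefore did not check the EC and HE labels of E8.5. No endothelial gene of the list was at 0 in any population. The 4 E10.5 libraries numbered 1 stood apart from the other 8 of that day: their scaling factors were 0.924 to 0.987 against 1.08 to 1.25, and their totals 20510715 to 28143388 against 16308918 to 21109046. Medians and counts of members in comparisons that use E10.5 are therefore given with and without these 4, a choice made after the data were seen. Results for single genes and other lists are given without them only where stated.

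The first bases of the transcript carry the element that these genes are known for, so a few are shown. RefSeq promoter windows on GRCm38.p6 were found for 55 members. A tract at the annotated start, meaning a C at the first base followed by at least 4 bases that are each C or T, was present in 13 of the 55 (23.6%) and in 3.01% of the 27025 genes with a window. Each line gives the 15 bases before and the 15 from the annotated start, with the tract in capitals.
Rpl35 (chr2:39005117-39005146, minus strand): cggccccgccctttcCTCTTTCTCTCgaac
Rps6 (chr4:86857353-86857382, minus strand): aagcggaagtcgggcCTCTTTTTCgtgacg
Rpl28 (chr7:4792950-4792979, plus strand): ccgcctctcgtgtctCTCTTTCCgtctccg
Rpl38 (chr11:114668565-114668594, plus strand): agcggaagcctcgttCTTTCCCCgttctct
Rpl15 (chr14:18270972-18271001, minus strand): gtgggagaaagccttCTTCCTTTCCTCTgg
Rps18 (chr17:33955651-33955680, minus strand): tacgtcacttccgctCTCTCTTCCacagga

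Rps2, Rpl12, Rps12, Rplp0 and Rpl10, 5 members described one by one below, have no such tract at the base annotated as the start. Their windows are shown for comparison, all in lower case because nothing in them was matched. In the Rpl12 window a run of t and c begins 1 base after the annotated start, where this search did not count it. Runs of c and t also lie further into the Rps2 and Rps12 windows. A tract at a start other than the annotated base was not looked for, so these genes may still carry one.
Rps2 (chr17:24720048-24720077, plus strand): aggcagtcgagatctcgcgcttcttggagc
Rpl12 (chr2:32961697-32961726, plus strand): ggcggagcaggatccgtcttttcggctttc
Rps12 (chr10:23787195-23787224, minus strand): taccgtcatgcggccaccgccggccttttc
Rplp0 (chr5:115559452-115559481, plus strand): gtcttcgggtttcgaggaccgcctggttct
Rpl10 (chrX:74270801-74270830, plus strand): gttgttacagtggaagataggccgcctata

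Other promoter words were counted on both strands in the 250 bases before and 50 after the start. The ETS factor word CCGGAAGT was in 10 of the 55 members (18.2%) and in 4.31% of all genes, and the YY1 core ATGGCG was in 16 (29.1%) against 10.2%. The GC box GGGCGG was in 33 (60%) against 38.2%, and the E-box CACGTG, the word of Myc and its partners, in 6 (10.9%) against 8.09%. TATAAA was in 6 (10.9%) against 15.7%, and the longer 11-base YY1 motif was in 0 against 0.755%. In Rpl41 and Rps6 the ETS word, in capitals, lay upstream of the start.
Rpl41 (chr10:128549206-128549235, minus strand): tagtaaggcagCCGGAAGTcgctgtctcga
Rps6 (chr4:86857440-86857469, minus strand): ttaatctacgcCCGGAAGTaacgcccctct

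Ribosomal protein transcripts were abundant in every population. Together the 75 members took between 7.67% and 15.7% of a library's counts. In E8.5 EC the shares were 13.4%, 14.9% and 13.4%, and in E8.5 HE they were 12.3%, 14.7%, 10.2% and 9.82%. In E9.5 EC they were 12.1%, 12.9% and 13.5%, in E9.5 HE 10.7%, 12.3% and 12.9%, and in pro-HSC/HPC 12.2%, 13.1% and 12.8%. The E9.5 populations overlapped throughout.

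At E10.5 the shares were 12.1%, 8.10% and 9.04% in EC and 10.8%, 7.67% and 8.62% in HE. They were 13.8%, 9.82% and 10.03% in pre-HSC I and 15.7%, 11.5% and 11.8% in pre-HSC II. Every E10.5 EC library lay below every E9.5 EC library, though those numbered 1 were close (12.11% against 12.15%). In HE the days overlapped through the libraries numbered 1 (10.76% at E10.5, 10.73% at E9.5). The pre-HSC I libraries numbered 2 and 3 lay below every pro-HSC/HPC library. In each E10.5 population the library numbered 1 was the highest, and the 4 of them lay between 10.8% and 15.7% while the other 8 lay between 7.67% and 11.8%. Set beside the library of the same number, HE was below EC in 3 of 3 at each day, pre-HSC I was above HE in 3 of 3, by 3.08, 2.16 and 1.41 percentage points, and pre-HSC II was above pre-HSC I in 3 of 3, by 1.87, 1.64 and 1.75. Pro-HSC/HPC was above HE in 2 of 3. In pools of sorted cells a lower share can mean less ribosomal protein RNA per cell, more RNA of other genes, or fewer cells that hold much of it. These cannot be told apart.

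**Figure D1:**
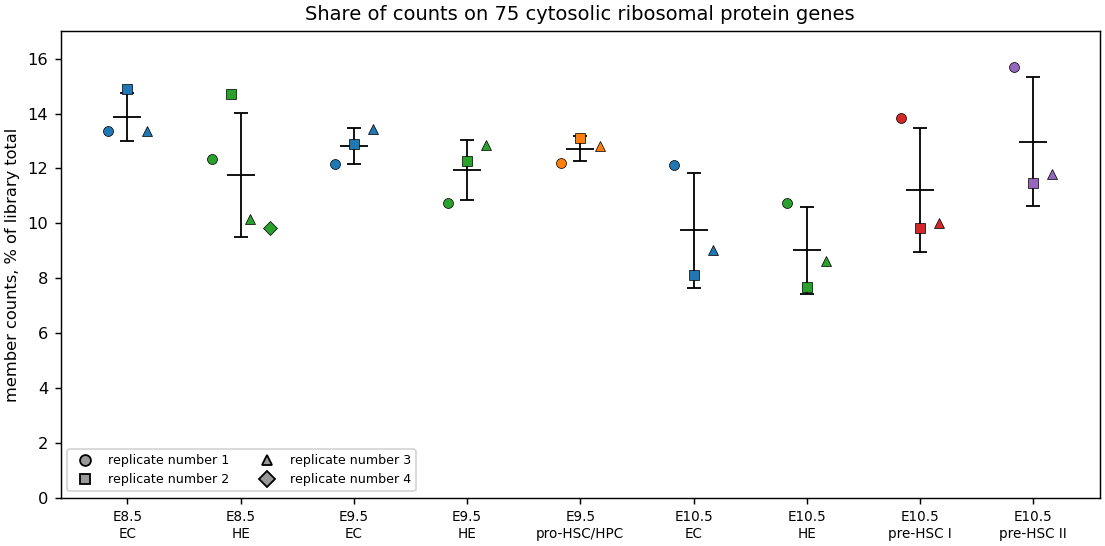
Share of each library's counts taken by the 75 ribosomal protein genes (y axis, percent), for the 9 populations in order of day (x axis). Marker shapes give the replicate number, and the horizontal line and bar give the population mean and SD. The points run from 7.67% in an E10.5 HE library to 15.7% in a pre-HSC II library, and the library numbered 1 is the highest of each E10.5 population.

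Of the 75 members, 74 had enough counts to be tested, and 71 averaged at least 100 CPM over the populations, between 570 and 4867 CPM. To compare genes with each other, levels were divided by the gene's length in the table. Rpl41, the smallest protein of the ribosome, had the highest level, 10839 CPM per kilobase, followed by Rpl35 with 7233 and Rpl32 with 4817, both of the large subunit. Rps14, a small-subunit protein linked to an anemia with a chromosome deletion, reached 4802, and Rps29, a small zinc-binding protein, 4675 CPM per kilobase. The median of the 71 was 2142 CPM per kilobase.

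At the low end of the 71 were Rps15a, of the small subunit, with 123 CPM per kilobase, Rpl22, a protein with a part in T-cell development, with 228, and Rpl31, of the large subunit, with 490. Rps15a is listed at 5134 bases, while the members' median length is 689 bases and that of all tested genes 2817, so its level per kilobase rests on a long gene model. The lowest 4 members had almost no counts. Rpl34 averaged 19.1 CPM, Rps27 7.67 and Rpl30 5.57, and Rpl26, which binds p53 RNA, had 2 counts over all 28 libraries and was not tested.

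Many members share sequence with processed pseudogenes and other copies. Of the 50-base stretches of a member's transcripts, a median of 38.3% also occur in transcripts of another gene of GENCODE M21 (range 0 to 95.1% over the 71). The share was 56.4% for Rps2, with 71 other genes, 64.9% for Rps12, 49.4% for Rpl12 and 28.9% for Rpl41. Among the members with almost no counts it was 72.8% for Rpl30, 46.18% for Rps27, 44.0% for Rpl26 and 10.97% for Rpl34. Rpl35, among the highest in level per kilobase, had 95.1%. The part of shared sequence in these levels was not tested. The sources used here do not say how reads with several matches were counted, so the level of any one of these genes is uncertain, and comparisons of 1 gene between populations are less exposed to this than comparisons between genes.

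**Figure D2:**
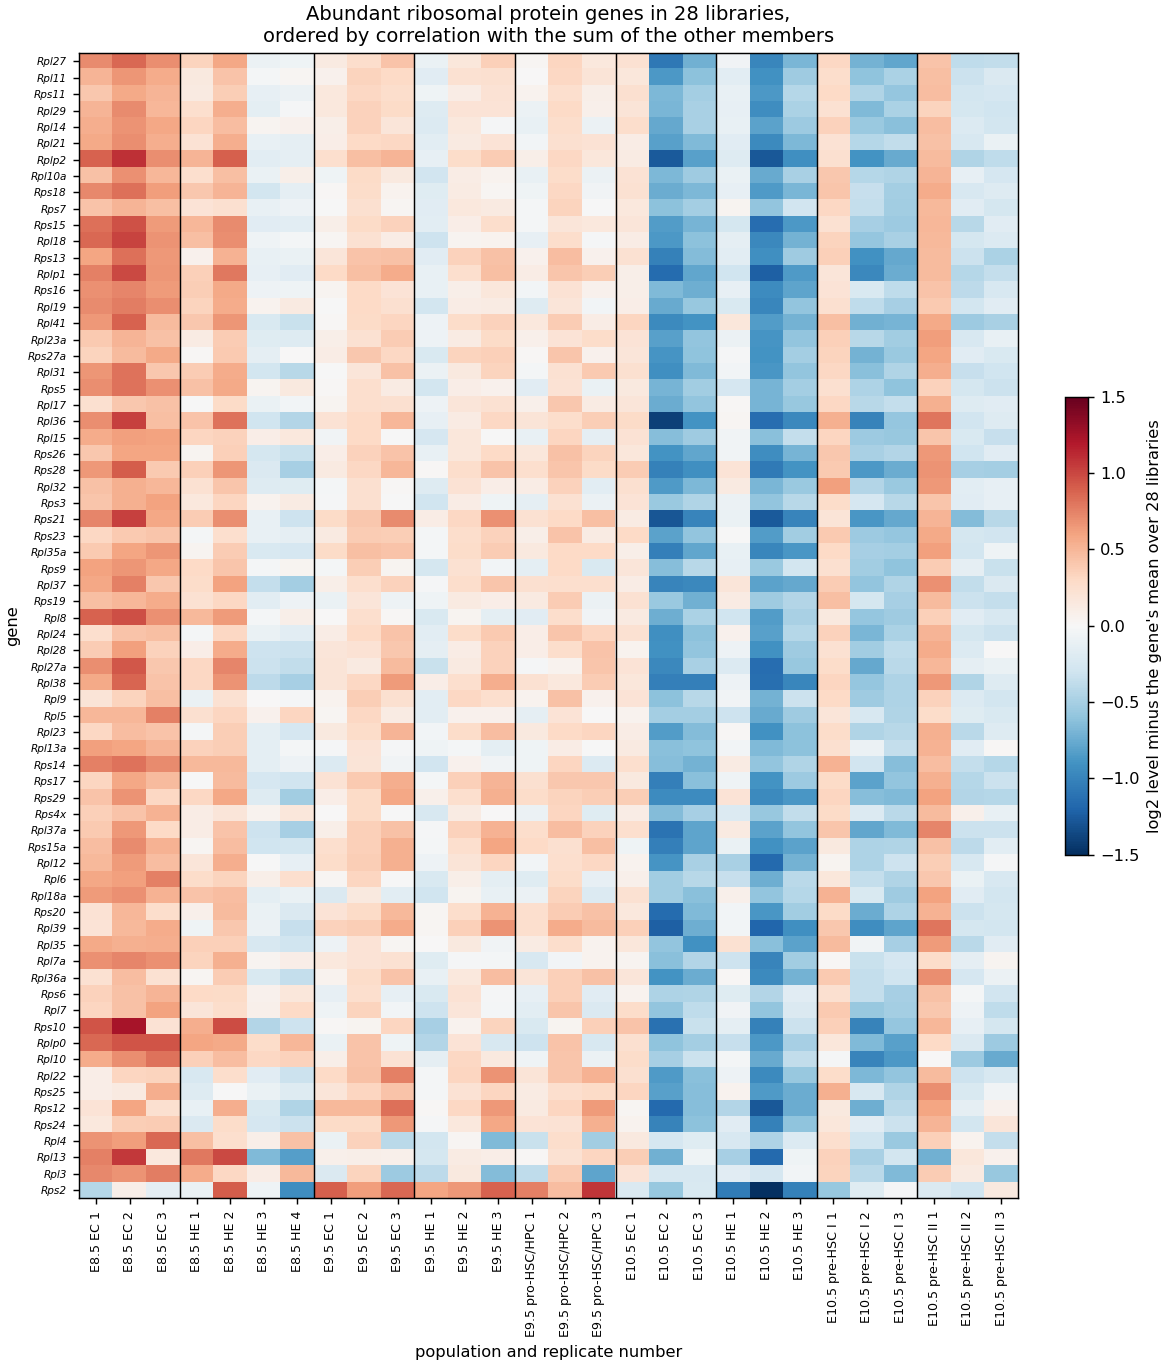
Level of the abundant ribosomal protein genes, 1 of them left out (y axis, ordered by correlation with the sum of the others) in each of the 28 libraries (x axis), coloured by log2 level minus the gene's mean over libraries. Most genes are high in E8.5 EC and low in the E10.5 EC, HE and pre-HSC I libraries numbered 2 and 3, while Rps2, on the last line, is high in all 9 libraries of E9.5.

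Members rose and fell together across libraries. For the 71 abundant members, the correlation of a member's level with the sum of the others over the 28 libraries had a median of 0.937, and 58 of 71 were at 0.9 or above. The libraries share populations and depth, so this is a description only. Rpl27 followed the rest most closely (0.989). Rps2 followed them least (0.440), then Rpl3, a protein near the peptide-bond centre, with 0.590, Rpl13 with 0.650 and Rpl4, which lines the exit tunnel, with 0.663. At E9.5, Rpl3 had 2476, 3613 and 1964 CPM in EC, 2192, 3189 and 1833 in HE and 2212, 3736 and 1658 in pro-HSC/HPC. The library numbered 2 was the highest of the 3 in each of these populations, and Rpl4 and Rplp0 had the same order of the library numbered 2 over the others.

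The first comparison set HE against EC at E8.5. Most members had lower estimates in HE, but no member passed the test in the main fit, which had no term for the replicate number. With a replicate block within day, added after the data were seen, edgeR called 55 of 74 members, beside 14.4% of all genes. The median log2 difference of the 74 was -0.42 (HE at 0.747 of EC), the interquartile range ran from -0.53 to -0.37, and 73 of 74 were negative, while the median of all 15238 genes tested was 0. The size depended on the scaling: with total counts alone the median was -0.24 and that of all genes 0.17. In 36 members every HE library was below every EC library, against a background of 8.07% of all genes. By edgeR 0 of 74 were called at an adjusted p under 0.05, where 6.81% of all genes were called. At an unadjusted p under 0.05 there were 7, all lower, beside 9.13% of all genes. Limma voom, which here gave each library a quality weight, called 4 members and DESeq2 0, beside 11.5% and 11.2% of all genes. Without the 4 E10.5 libraries numbered 1, which enter this comparison only through the shared estimate of spread, edgeR called 8 members, all lower, beside 8.16% of all genes.

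Rpl8, part of the large subunit core, had 2409, 2556 and 2104 CPM in E8.5 EC and 1819, 2029, 1276 and 1380 in E8.5 HE. All 4 HE libraries were below all 3 EC libraries, but the HE libraries numbered 3 and 4 lay well under those numbered 1 and 2 (log2 difference -0.54 ± 0.22 SE, edgeR adjusted p = 0.157). Rpl7a, of the large subunit, followed with -0.43 (adjusted p = 0.157) and Rps15a with -0.55 (adjusted p = 0.198). The same lower pair was seen in other members. Rpl13 had 3016 and 3474 CPM in the HE libraries numbered 1 and 2 and 1107 and 984 in those numbered 3 and 4, and Rpl41 had 6063 and 7241 against 3908 and 3638. Without the pair numbered 3 and 4, a choice made after the data were seen, the median difference was -0.21 and 0 members were called, beside 2.48% of all genes.

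HE and EC were compared in the same way at the later days. At E9.5 the median log2 difference was -0.13, with 73 of 74 negative and 2 members whose libraries did not overlap, below a background of 6.6% (all-gene median -0.01). None was called by edgeR, DESeq2 or limma voom, 0 had an unadjusted p under 0.05, and 0.302% of all genes were called. The 3 smallest p belonged to Rpl7a, Rpl12 and Rpl4, and Rpl7a had a difference of -0.27 (edgeR adjusted p = 0.989). At E10.5 the median was -0.12, with 63 of 74 negative (all-gene median -0.00), and edgeR again called 0, with 3.48% of all genes called and 1 member at an unadjusted p under 0.05, beside 15.9% of all genes. The median depended on single libraries: it was 0.22 without the EC library numbered 1 and -0.38 without the HE library numbered 1. Without all 4 libraries numbered 1 it was -0.01, with 35 positive, 39 negative and 0 called, beside 1.96% of all genes.

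The member with the smallest p between E10.5 HE and EC was Rps2, a small-subunit protein near the entry channel of the messenger RNA (mm9 chr17:24857008-24858872). It had 750, 586 and 744 CPM in EC and 421, 228 and 432 in HE. All HE libraries were below all EC libraries (log2 difference -0.94 ± 0.31 SE). This held for only 1 of 74 members, a smaller share than the 8.96% of all genes. Its edgeR adjusted p was 0.0937, and DESeq2 and limma voom each called 1 member, Rps2, with adjusted p of 0.0356 and 0.0309, beside 6.22% and 7.84% of all genes. Rpl30 (-0.88, edgeR adjusted p = 0.384) and Rpl12 (-0.37, 0.465) came next. With a replicate block within day edgeR called 2 members, Rps2 and Rpl12, beside 8.64% of all genes.

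**Figure D3:**
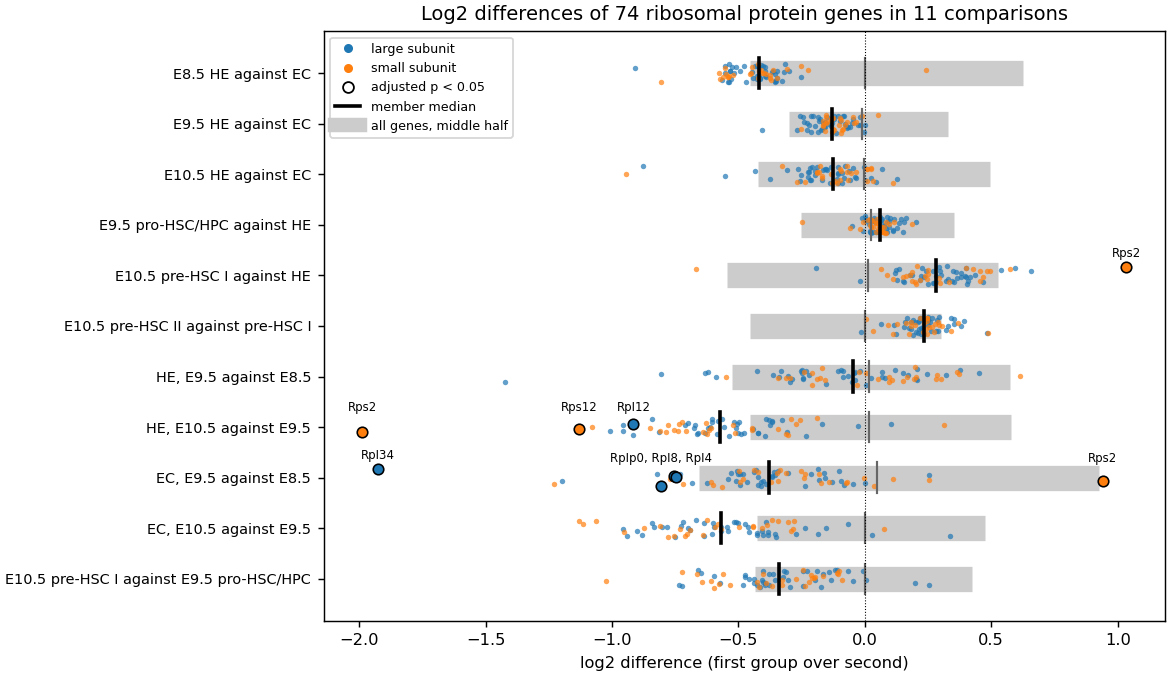
Log2 differences of the 74 tested ribosomal protein genes (x axis, first group over second) in 11 comparisons (y axis). Each point is a gene, blue for the large and orange for the small subunit, ringed and named where edgeR called it, with a black line at the median and a grey band for the interquartile range of all genes tested. The medians range from -0.57, for E10.5 against E9.5 in HE and in EC, to 0.28, for pre-HSC I against HE.

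In the main fit, the test of whether the HE to EC difference changed between days found no member. Against E8.5, the difference was less negative at E9.5 by a median of 0.30 (73 of 74 positive) and at E10.5 by 0.29 (70 of 74 positive), and edgeR called 0 in each, with 0.847% and 2.99% of all genes called. At an unadjusted p under 0.05 there were 0 and 1, beside 9.02% and 14.5% of all genes, the 1 being Rps2, which went the other way (-1.19 ± 0.42 SE, edgeR adjusted p = 0.143). Between E9.5 and E10.5 the median was -0.00, with 37 positive and 37 negative, 0 called by edgeR, 0 at an unadjusted p under 0.05 and 0.0131% of all genes called. DESeq2 and limma voom called 0 in all of these tests. With total counts alone the medians against E8.5 were 0.13 at E9.5 and 0.11 at E10.5, and those of all genes -0.19 and -0.22. With a replicate block within day edgeR called 4 for E10.5 against E8.5, beside 6.02% of all genes. The E10.5 to E8.5 median ran from 0.05, without the E10.5 HE library numbered 1, to 0.64, without the EC library of that number. The E10.5 to E9.5 median ran from -0.24 to 0.34 without the same libraries. Without all 4 libraries numbered 1 these medians were 0.41 (72 of 74 positive) and 0.12 (64 of 74 positive), with 0 members called in each, beside 2.36% and 0.0256% of all genes.

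The step from hemogenic endothelium to blood was measured at E9.5 and E10.5. At E9.5, pro-HSC/HPC and HE did not differ by the test in any member. The median log2 difference was 0.06 (all-gene median 0.02), 66 of 74 were positive, 0 had libraries that did not overlap, and 0 were called by edgeR, DESeq2 or limma voom or had an unadjusted p under 0.05, where edgeR called 0.656% of all genes. The median was -0.05 without the E9.5 HE library numbered 1 and 0.11 without the one numbered 3. The smallest p belonged to Rps26 (0.19), Rpl28 (0.15) and Rpl8 (0.13), each at an edgeR adjusted p of 1. Erythroid genes summed to between 10.6 and 12127 CPM in the pro-HSC/HPC libraries and to 5.24 to 26.6 in E9.5 HE. Their part in these values was not tested.

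At E10.5, pre-HSC I had a single called member over HE in the main fit, Rps2. It had 421, 228 and 432 CPM in HE and 587, 766 and 860 in pre-HSC I. Every pre-HSC I library was above every HE library (log2 difference 1.03 ± 0.31 SE, means of 738 and 360 CPM, 2.05-fold, edgeR adjusted p = 0.0389). Leaving out 1 library at a time ended this call for each of the 3 HE libraries and for the pre-HSC I libraries numbered 2 and 3 (adjusted p of 0.0514 to 0.201). It also missed the threshold when only the compared libraries were fitted (adjusted p = 0.0614). Without the 4 libraries numbered 1 Rps2 was still the 1 member called, beside 6.03% of all genes. With a replicate block within day, added after the data were seen, edgeR called 26 members, beside 15.3% of all genes.

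The other members lay slightly above HE. The median of the 74 was 0.28, with 71 positive, and the all-gene median was 0.01. The call of 1 of 74 stands beside 6.88% of all genes called, and 3 members had libraries that did not overlap and were higher, beside 11% of all genes. Rpl12 (0.54, edgeR adjusted p = 0.178) was among the 3 members with the smallest p. The median turned to -0.07 without the pre-HSC I library numbered 1, and it was 0.53 without the HE library numbered 1 and 0.18 without all 4 libraries numbered 1. The endothelial markers summed to 3206 to 3472 CPM in HE and 959 to 1283 in pre-HSC I, and the hematopoietic markers to 66.0 to 82.2 and 565 to 765 CPM. Erythroid genes summed to 13.9 to 1401 CPM in pre-HSC I, against 8.39 to 18.8 in HE, and their part in the differences was not tested.

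From pre-HSC I to pre-HSC II most estimates were again positive, with a median of 0.23 and 73 of 74 positive (all-gene median 0), but 0 were called by edgeR, where 4.42% of all genes were. None had an unadjusted p under 0.05 or was called by DESeq2 or limma voom, and 0 had libraries that did not overlap. With a replicate block within day edgeR called 6, beside 6.16% of all genes. The median was -0.07 without the pre-HSC II library numbered 1 and 0.54 without the pre-HSC I library numbered 1. Without all 4 libraries numbered 1 it was 0.26, with 72 of 74 positive and 0 called, beside 3.23% of all genes. Rps12 had 953, 519 and 653 CPM in pre-HSC I and 1298, 782 and 901 in pre-HSC II (log2 difference 0.49, edgeR adjusted p = 0.628). The ranges overlapped because the library numbered 1 was high in both. Rpl39, a very small protein of the exit tunnel (0.48, edgeR adjusted p = 0.789), and Rpl7a (0.25) followed.

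For the step into blood, the estimated difference between the days (pre-HSC I over HE at E10.5, less pro-HSC/HPC over HE at E9.5) had a median of 0.21, with 71 of 74 positive. It ran from -0.12, without the pre-HSC I library numbered 1, to 0.48, without the E10.5 HE library numbered 1, and was 0.11 with 54 positive, 20 negative and 0 called without all 4 libraries numbered 1, beside 1.04% of all genes. For this test the main edgeR fit called 0 members and 0.0722% of all genes. At an unadjusted p under 0.05 there was 1 member (Rps2, 0.96 ± 0.43 SE, edgeR adjusted p = 0.448), beside 10.1% of all genes. DESeq2 and limma voom called 0. With a replicate block within day edgeR called 3, beside 3.46% of all genes.

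Between days, HE was first compared at E9.5 and E8.5. The median log2 difference was -0.05 (all-gene median 0.02), with 31 positive and 43 negative, and the sign of this median depended on the scaling: with total counts alone it was 0.07, while all genes moved to 0.13. EdgeR called 0 members, where 6.54% of all genes were called. There were 5 at an unadjusted p under 0.05, beside 23.6% of all genes. Limma voom called 4 members and DESeq2 1, beside 12.8% and 11.4% of all genes. In 7 members every E9.5 library was below every E8.5 library, beside 9.49% of all genes. Rpl34, a large-subunit protein, had 44.6, 40.4, 15.4 and 18.7 CPM in E8.5 HE and 8.08, 13.8 and 11.4 at E9.5, a change that missed the threshold (-1.42, edgeR adjusted p = 0.0867). Rpl4 (-0.59, 0.123) and Rplp0 (-0.62, 0.148) came next.

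From E9.5 to E10.5 most members were lower in HE, and 3 passed the test: Rps2, Rps12 and Rpl12. Rps2 had 1314, 1372 and 1603 CPM at E9.5 and 421, 228 and 432 at E10.5. All E10.5 libraries were far below all E9.5 libraries (log2 difference -1.99 ± 0.31 SE, edgeR adjusted p = 0.000786), and the call held in 17 of 17 alternatives. Rps12, a small-subunit protein of the beak (mm9 chr10:23504989-23507015), had 873, 1070 and 1356 CPM at E9.5 and 637, 356 and 515 at E10.5 (-1.13 ± 0.30 SE, edgeR adjusted p = 0.0351). Rpl12, at the base of the stalk where elongation factors bind (mm9 chr2:32817232-32819565), had 825, 993 and 1088 CPM at E9.5 and 620, 388 and 532 at E10.5 (-0.92 ± 0.23 SE, edgeR adjusted p = 0.0269). In both genes the groups did not overlap, and the E10.5 library numbered 1 was the highest of its group. Both calls were lost without the E9.5 library numbered 2 or 3 or the E10.5 library numbered 2 or 3, with adjusted p up to 0.189 for Rps12 and 0.169 for Rpl12.

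Over the 74 members the median between E9.5 and E10.5 in HE was -0.57, with 72 negative, and the all-gene median was 0.02. The 3 lower calls stand beside 2.15% of all genes called lower (3.64% in either direction), and 24 members had no overlap and were lower, beside 12.3% of all genes. At an unadjusted p under 0.05 there were 35, all lower, beside 9.45% of all genes. The small subunit (-0.62) and the large subunit (-0.54) had near medians. The count depended on 1 library: it was 8 without the E10.5 HE library numbered 1 and 1 without the E9.5 library numbered 2 or 3 or the E10.5 library numbered 2 or 3. Without the 4 E10.5 libraries numbered 1 edgeR called 51 of 74 lower, the 3 above among them, with a median of -0.83, beside 3.48% of all genes called lower.

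**Figure D4:**
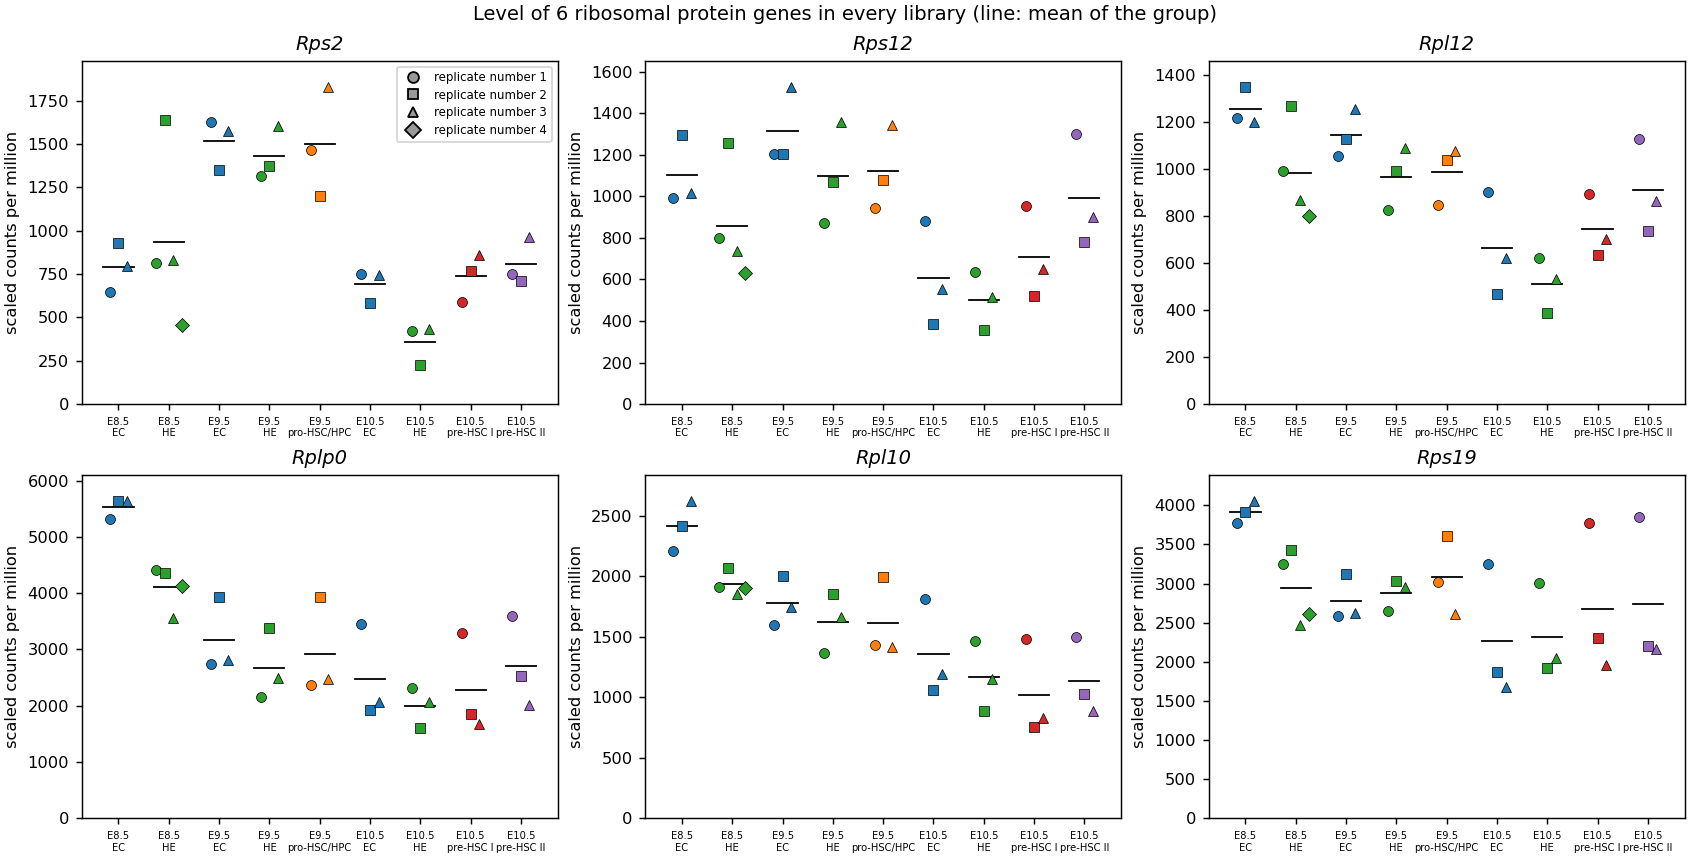
Scaled CPM (y axes, from 0) of Rps2, Rps12, Rpl12, Rplp0, Rpl10 and Rps19 in the 9 populations (x axes), with each library as a point shaped by its replicate number and the population mean as a line. Rps2 lies between 1202 and 1831 CPM in all 9 libraries of E9.5 and between 228 and 961 CPM in all 12 of E10.5.

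In EC the E9.5 to E8.5 comparison had the most called members. Rps2 rose, from 649, 927 and 796 CPM at E8.5 to 1626, 1350 and 1576 at E9.5 (log2 difference 0.94 ± 0.31 SE, edgeR adjusted p = 0.0312). The groups did not overlap. Rpl34 fell, from 65.2, 78.2 and 24.4 CPM to 12.8, 14.98 and 16.4 (-1.92 ± 0.54 SE, edgeR adjusted p = 0.0125). The E8.5 library numbered 3 was well below the other two, but all E8.5 libraries were above all E9.5 libraries.

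Rplp0, the stalk protein that anchors Rplp1 and Rplp2 (mm9 chr5:116009476-116013738), fell from 5316, 5644 and 5639 CPM to 2744, 3937 and 2809 (-0.81 ± 0.28 SE, edgeR adjusted p = 0.0409). Rpl8 (mm9 chr15:76734501-76736748) fell from 2409, 2556 and 2104 CPM to 1306, 1557 and 1324 (-0.76 ± 0.24 SE, edgeR adjusted p = 0.0289). In both genes the days were clearly apart. The fifth call, Rpl4, fell from 5117, 4954 and 5844 CPM to 2982, 4089 and 2421 (-0.75, edgeR adjusted p = 0.0338). It is named after its values were seen, being outside the rule for named genes.

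These 5 calls of 74 stand beside 19.7% of all genes called (10.1% higher and 9.56% lower) and are no result about the members as a set. The median was -0.38 against 0.05 for all genes, with 68 negative, and 44 members had no overlap and were lower, beside 17.5% of all genes. At an unadjusted p under 0.05 there were 1 higher and 17 lower, beside 17.4% and 15.9% of all genes. With total counts alone the median was -0.10 and that of all genes 0.34. The calls rest on few libraries. Their number ran from 0, without the E9.5 library numbered 1, to 6, without the E9.5 library numbered 2, and over the alternatives the adjusted p reached 0.118 for Rps2, 0.0632 for Rpl34, 0.148 for Rplp0 and 0.102 for Rpl8. Without the E8.5 EC library numbered 1, 2 or 3 there were 1, 1 and 3 calls, and without the E9.5 library numbered 3 there was 1. The endothelial markers summed to 1099 to 1302 CPM in E8.5 EC and 2178 to 2474 in E9.5 EC. The 7 genes of mesenchyme and smooth muscle summed to 20.2 to 35.7 and 74.9 to 489 CPM, and the 4 of germ cells to 0.188 to 4.24 and 1.49 to 49.7. Their part in these differences was not tested.

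In EC from E9.5 to E10.5 the estimates were lower, with a median of -0.57, 71 of 74 negative and an all-gene median of 0. None was called by edgeR, where 0.761% of all genes were called, but 34 had an unadjusted p under 0.05, all lower, beside 7.02% of all genes. Limma voom called 43 members and DESeq2 5, all lower, beside 3.45% and 1.33% of all genes called lower. In 17 members the groups did not overlap and E10.5 was lower, beside 10.4% of all genes. Rps12 had 1204, 1203 and 1528 CPM at E9.5 and 879, 384 and 553 at E10.5 (-1.12, edgeR adjusted p = 0.0781). The days did not overlap, and the E10.5 library numbered 1 was the nearest to E9.5. Rps2 (-1.13, 0.0787) and Rps15a (-0.95, 0.106) were close behind. Without the E10.5 EC library numbered 1, edgeR called 6 members, and without all 4 libraries numbered 1 it called 55 of 74, all lower, with a median of -0.89 beside 1.81% of all genes called lower.

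Pre-HSC I of E10.5 and pro-HSC/HPC of E9.5, the blood populations of the 2 days, differed in the same direction. The median was -0.34, with 71 of 74 negative and an all-gene median of 0. EdgeR called 0 members and 1.45% of all genes, and 6 members had an unadjusted p under 0.05, all lower, beside 7.55% of all genes. Limma voom called 9 members and DESeq2 1, all lower, beside 3.86% and 2.21% of all genes called lower. In 4 members the groups did not overlap and pre-HSC I was lower, beside 9.88% of all genes. Rps2 had 1468, 1202 and 1831 CPM in pro-HSC/HPC and 587, 766 and 860 in pre-HSC I, with no overlap (-1.02, edgeR adjusted p = 0.102). Rpl10, which completes the large subunit for translation (-0.66, 0.249), and Rps12 (-0.66, 0.363) followed. Without the 4 libraries numbered 1 edgeR called 24 of 74, all lower, with a median of -0.62 beside 2.04% of all genes called lower.

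Set out over the 9 populations, the E8.5 levels of Rps2 ran from 649 to 927 CPM for EC and from 458 to 1638 for HE, those of E9.5 were 1202 to 1831 in all 3 populations, and those of E10.5 were 586 to 750 in EC, 228 to 432 in HE, 587 to 860 in pre-HSC I and 710 to 961 in pre-HSC II. E9.5 was above E10.5 in every library, and E10.5 HE held the 3 lowest values of all 28. The E8.5 HE library numbered 2, with 1638 CPM, lay among the E9.5 libraries.

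Genes with a known part in disease or control are given next. Of 16 members mutated in Diamond-Blackfan anemia, 15 were tested, and the main edgeR fit called 0 in each comparison within a day or between days. At an unadjusted p under 0.05 there were 7 in HE and 7 in EC from E9.5 to E10.5, 2 in EC from E8.5 to E9.5 and at most 1 elsewhere, all lower, beside the 9.45%, 7.02% and 15.9% of all genes given above. Rps19, the first of these genes to be found, had 3253, 1874 and 1682 CPM in E10.5 EC, 3006, 1916 and 2048 in HE, 3774, 2300 and 1964 in pre-HSC I and 3849, 2206 and 2158 in pre-HSC II. The library numbered 1 was the highest each time and the populations overlapped. Their medians were -0.45 for HE against EC at E8.5, 0.21 for pre-HSC I against HE and -0.61 for HE between E9.5 and E10.5, near those of all members.

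Rpl5 and Rpl11, which bind Mdm2 when ribosome assembly fails and so restrain p53 decay, had no call in the main edgeR fit at E10.5. Rpl5 had 1946, 1324 and 1323 CPM in E10.5 EC and 1522, 1114 and 1301 in HE, and Rpl11 had 1491, 734 and 869 in EC and 1195, 706 and 918 in HE. The 2 populations overlapped for both genes. Rps6, the substrate of the S6 kinases, had 3082, 2160 and 2172 CPM in EC and 2624, 2194 and 2648 in HE. Rpl38, whose loss alters Hox gene translation in mouse embryos, had 1160, 505 and 507 CPM in EC and 979, 469 and 524 in HE. Rpl22 had 638, 301 and 351 CPM in EC and 513, 279 and 363 in HE, and Rps27a, made as a fusion with ubiquitin, had 1531, 732 and 889 and then 1331, 724 and 947. In all of these the library numbered 1 set the top of the EC range.

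The stalk genes Rplp0, Rplp1 and Rplp2 recruit the factors of elongation. Their medians between E9.5 and E10.5, over 3 genes, were -0.92 in HE and -0.94 in EC. Rplp1 had 1287, 1657 and 1900 CPM in E9.5 HE and 1133, 594 and 769 in E10.5 HE, and Rplp2 had 952, 1250 and 1349 and then 905, 427 and 548. The days did not overlap for either gene, but the E10.5 library numbered 1 came close to the E9.5 libraries. None of the 3 was called in these comparisons.

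A second fit used the members' own summed counts as the library size, so that it asked which member departed from the set. In the 6 comparisons within a day edgeR called 1 member. Rpl10 (mm9 chrX:71516155-71518474) had 1464, 882 and 1154 CPM in E10.5 HE and 1477, 756 and 826 in pre-HSC I. The groups overlapped in CPM, but relative to the member sum Rpl10 was lower in pre-HSC I (log2 difference -0.47 ± 0.13 SE, edgeR adjusted p = 0.0278), beside 5.34% of all genes called in this fit. The call was lost without any one of the HE libraries numbered 2 and 3 and the pre-HSC I libraries (adjusted p of 0.0589 to 0.146). Without the 4 libraries numbered 1 it was also lost (0.0742), and Rps2 was called higher in its place (1.18, edgeR adjusted p = 0.0375). In the other 5 comparisons 0 members were called. The shares of all genes called there were 7.87%, 0.158% and 1.95% for HE against EC at E8.5, E9.5 and E10.5, 0.387% for pro-HSC/HPC against HE and 4.34% between the pre-HSC populations.

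Short members had lower estimates than long ones between E9.5 and E10.5. For E10.5 against E9.5 the rank correlation between the log2 difference and gene length over the 71 abundant members was 0.45 in HE and 0.44 in EC and 0.44 for pre-HSC I against pro-HSC/HPC. Members are not independent, and these comparisons share libraries within a day, so no test is given. In HE the 27 members under 600 bases had a median of -0.71 and the 16 of at least 1000 bases -0.41. Other genes under 600 bases with at least 100 CPM, of which there were 245, had a median of -0.27. At that level, 526 other genes from 600 to under 1000 bases had -0.0045 and 1155 longer ones -0.12. In EC the members' medians were -0.70 and -0.38, and those of the other genes -0.26, -0.03 and -0.08 in order of length. In the remaining comparisons the members' correlation with length ran from -0.37 (HE, E9.5 against E8.5) to 0.36 (HE against EC at E8.5). The part of gene length in these differences was not tested beyond these values.

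**Figure D5:**
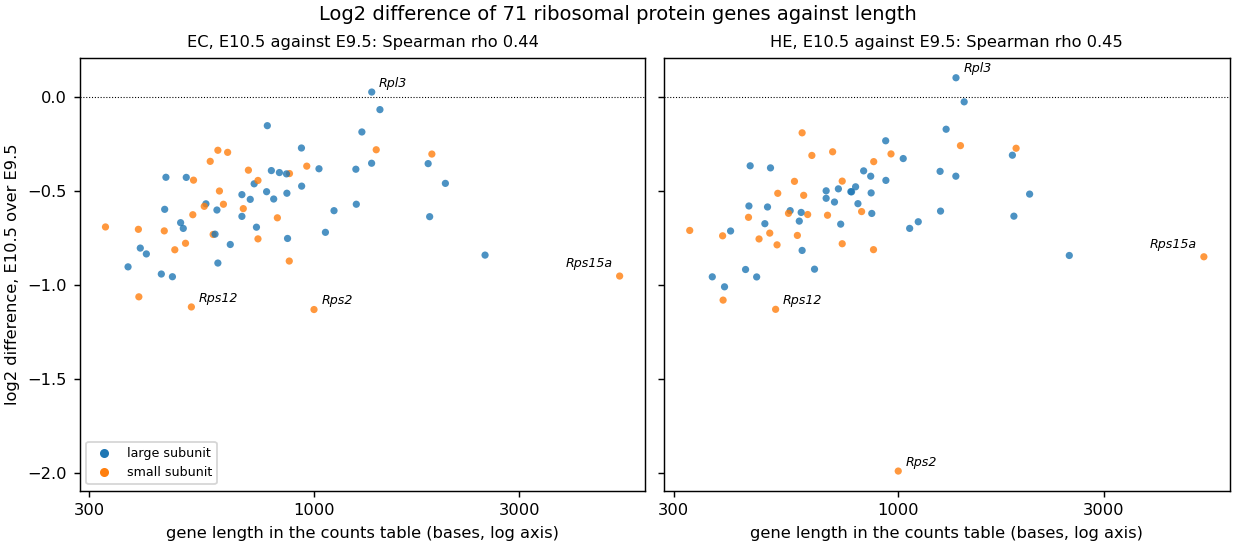
Log2 difference, E10.5 over E9.5 (y axis), of the 71 abundant ribosomal protein genes against gene length in bases (x axis, log scale), in EC (left) and HE (right). Each point is a gene, blue for the large and orange for the small subunit. In HE the genes under 600 bases had a median of -0.71 and those of at least 1000 bases -0.41.

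Genes that work beside the ribosomal proteins were counted from lists. Of 4 ribosomal proteins outside the naming rule, 2 fell in EC from E8.5 to E9.5 (beside 9.56% of all genes called lower): Fau, by 1.03 on the log2 scale (edgeR adjusted p = 0.0162), and Gnb2l1, the signalling scaffold of the small subunit, by 0.69 (0.033). No other comparison within a day or between days called any of the 4 in edgeR. Of 6 tested paralogs, Rps4l fell in EC over the same days by 1.70 (edgeR adjusted p = 0.00076) and in HE by 1.16 (0.0231), beside 9.56% and 3.58% of all genes called lower, and it was the only one called.

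Of 77 mitochondrial ribosomal proteins, which belong to a separate ribosome, 36 fell in EC from E8.5 to E9.5 and 0 rose, beside 9.56% of all genes called lower, with a median of -0.74, where the cytosolic members had 4 lower calls and a median of -0.38. In HE over those days 11 fell and 0 rose, beside 3.58% of all genes called lower, with a median of -0.39 against -0.05 for the cytosolic members. From E9.5 to E10.5 in HE the order was the other way, with medians of -0.20 for the mitochondrial and -0.57 for the cytosolic proteins and 3 lower calls in each, beside 2.15% of all genes. A test of the difference between these lists was not made. Of 11 chaperones of ribosomal proteins, 5 fell in EC and 5 in HE from E8.5 to E9.5, beside the same 9.56% and 3.58%, with medians of -0.86 and -0.68. Among them Ltv1, which helps mature the small subunit, was also lower in HE than in EC at E8.5 (-1.11 ± 0.25 SE, edgeR adjusted p = 0.00572) and at E10.5 (-1.04 ± 0.27, 0.0277).

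Among 24 translation factors and other TOP transcripts, 4 rose and 1 fell in pre-HSC I against HE, beside 3.08% and 3.8% of all genes called higher and lower. Pabpc1, the poly(A)-binding protein, rose from a mean of 575 to 1215 CPM (1.08 ± 0.20 SE, edgeR adjusted p = 0.00104), and Npm1, a nucleolar chaperone, from 2471 to 4396 (0.83 ± 0.24, 0.0289). Nap1l1 and Hnrnpa1 also rose, and Vim, the filament protein vimentin, fell by 1.09. From E9.5 to E10.5 in HE the 3 that fell and the 0 that rose included Pabpc1 (-0.97, edgeR adjusted p = 0.00568) and Npm1 (-0.95, 0.0214), with Nap1l1 (-0.88, 0.00323), beside 2.15% of all genes called lower. This list had the most calls in EC from E8.5 to E9.5, where 8 fell and 1 rose, with a median of -0.32. Of all genes, 9.56% were called lower and 10.1% higher there.

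Myc and Mycn, transcription factors that drive ribosome production, were each called in several comparisons. Myc averaged 536 CPM in E8.5 EC and 161 in E8.5 HE (-1.73 ± 0.40 SE, edgeR adjusted p = 0.00804), and it fell in EC to 102 at E9.5 (-2.39 ± 0.45, 0.000638), while Mycn rose there from 21.8 to 70.4 CPM (1.69 ± 0.34, 0.000996). At E10.5 it was lower in HE than in EC (-1.57 ± 0.44, 0.0449). Mycn rose in pro-HSC/HPC over HE at E9.5, from 54.4 to 142 CPM (1.38 ± 0.33 SE, edgeR adjusted p = 0.0486), and in pre-HSC I over HE at E10.5, from 29.6 to 183 (2.63 ± 0.35, 3.41e-05). These genes were tested in the same fit, and their part in the ribosomal protein levels was not tested. Of 17 p53 targets, 1 rose and 2 fell in pre-HSC I against HE, beside 3.08% and 3.8% of all genes, and 1 rose and 1 fell in HE against EC at E8.5, beside 5.08% and 1.73%.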

How the data were processed

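Deposited raw counts per gene symbol were used for 28 libraries, with gene lengths and mm9 positions beside them per the file headers. Per the labels' protocols, polyA RNA of cells sorted into lysis buffer was amplified with the SMARTer Ultra Low Input kit. The submitters' processing notes name TopHat, SAMtools, Subread, featureCounts 1.6.2 and the build mm9. The sources used here do not give the strand setting, the annotation release or the treatment of reads with several matches. SMARTer libraries are amplified without molecular identifiers, so counts are not independent molecules.

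In R 4.3.3, edgeR 4.0.16 kept 15238 of 24015 genes (filterByExpr, minimum count 10), scaled libraries by TMM and fitted a quasi-likelihood model with 1 term per population to all 28 libraries. The common biological coefficient of variation was 0.563. The 6 comparisons within a day, 5 between days and 4 differences of differences were contrasts, with Benjamini-Hochberg adjustment over all genes tested and a threshold of 0.05. A second fit used the summed member counts as library size. Alternatives were DESeq2 1.42.0, limma 3.58.1 (voom with a quality weight for each library), other scalings, no filter or a filter of 10 CPM in 3 libraries, a replicate block, only the compared libraries, and each library left out. Every result given for limma voom used these weights, and their part in its calls was not tested. The fit was tested on simulated data. Promoter windows came from RefSeq (GRCm38.p6).

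The members and the lists were chosen with earlier results of these data known. Named genes were the called members with the largest changes (up to 5 each way within a day, 3 between days and 3 relative to the member sum), the 3 with the smallest p where fewer than 2 were called, the 3 highest and 3 lowest per length, a fixed panel of members, and up to 4 per related list with the smallest p within a day. Some are given by range only, and a few items are not reported here.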

Additional observations from a re-analysis of the deposited data

Results flagged for a closer look

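Rps24, a small-subunit protein mutated in Diamond-Blackfan anemia, had 1224, 1716, 1191 and 1135 CPM in the 4 E8.5 HE libraries. The library numbered 2 was far from the rest: its gap to the nearest of the others was 0.845 of the whole range, above Dixon's limit for 4 samples. This was 1 of 34 groups of values examined, and chance alone gives about 1 in 20. In E8.5 EC the gene had 1588, 1845 and 1851 CPM, so that library lay within the EC range. The same library had the highest share of counts on the members as a whole, 14.7% against 12.3%, 10.2% and 9.82% in the others.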

How the results depend on the processing

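No called result changed direction. Counts of members called below are over 74 members by edgeR unless another tool is named. For HE against EC, limma voom gave 4 at E8.5, and at E10.5 voom, DESeq2 and the replicate block each gave 1, where they called 7.84%, 6.22% and 3.7% of all genes. Shares of all genes called by the same fit follow other counts in parentheses. Pre-HSC I against HE gave 5 with total counts alone (7.09%) and 0 with only the compared libraries. HE at E9.5 against E8.5 gave 4 with voom (12.8%), 1 with DESeq2 (11.4%) and 1 without the E8.5 HE libraries numbered 3 and 4 (10.2%). HE at E10.5 against E9.5 gave 6 with only the compared libraries (7.43%), 30 with voom (all lower, beside 5.11% of all genes called lower), 7 with DESeq2 (6.94%) and 51 without the E10.5 libraries numbered 1 (4.89%). EC at E9.5 against E8.5 gave 21 with only the compared libraries (20.9%), 29 with voom (36.5%) and 13 with DESeq2 (25%). EC at E10.5 against E9.5 gave 1 with total counts alone (1.06%), 1 with no filter (0.766%), 1 with the stricter filter (1.88%), 1 with only the compared libraries (1.3%), 43 with voom (6.26%), 5 with DESeq2 (2.75%) and 55 without the E10.5 libraries numbered 1 (2.25%). Pre-HSC I against pro-HSC/HPC gave 9 with voom (6.82%), 1 with DESeq2 (3.23%) and 24 without those libraries (2.41%). Leaving them out also moved comparisons of E8.5 and E9.5, through the shared estimate of spread, to 8 for HE against EC at E8.5 (8.16%), 2 for HE at E9.5 against E8.5 (7.75%) and 21 for EC at E9.5 against E8.5 (21.5%). The change of the HE to EC difference from E8.5 to E10.5 gave 1 without the E8.5 HE libraries numbered 3 and 4 (2.02%). The cause of these shifts was not tested, beyond the fewer libraries fitted where some were left out.

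The numbers do not pair the libraries by the labels, and libraries of the same number correlated in their deviations by 0.03 to 0.23 within a day and -0.09 to 0.09 between days. In each comparison within a day, 5 or 6 libraries correlated best with the library of their own number, against 0 to 2 between days. What libraries of the same number share was not tested. As a block, the replicate number gave 5 for HE at E10.5 against E9.5 (4.44%), 9 for EC at E9.5 against E8.5 (21.7%), 1 for EC at E10.5 against E9.5 (1.11%), 1 for pre-HSC I against pro-HSC/HPC (1.84%) and 1 for the change of the HE to EC difference from E8.5 to E10.5 (3.05%). A replicate block within day, added after the data were seen, gave 55 for HE against EC at E8.5 (14.4%), 2 at E10.5 (8.64%), 26 for pre-HSC I against HE (15.3%), 6 between the pre-HSC populations (6.16%), 4 for the change of the HE to EC difference from E8.5 to E10.5 (6.02%) and 3 for the step into blood (3.46%).

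Leaving out each library in turn gave 0 to 1 for pre-HSC I against HE, HE at E9.5 against E8.5, pre-HSC I against pro-HSC/HPC, the change of the HE to EC difference from E8.5 to E10.5 and the fit relative to the member sum, 1 to 8 for HE at E10.5 against E9.5, 0 to 6 for EC at E9.5 against E8.5 and for EC at E10.5 against E9.5, and 0 in all other comparisons. The mean share of counts then ran from 8.57% to 10.6% in E10.5 EC, 8.14% to 9.69% in E10.5 HE, 9.93% to 11.9% in pre-HSC I, 11.6% to 13.7% in pre-HSC II, 10.8% to 12.4% in E8.5 HE, 13.4% to 14.1% in E8.5 EC, 12.5% to 13.2% in E9.5 EC, 11.5% to 12.6% in E9.5 HE and 12.5% to 12.96% in pro-HSC/HPC. Without the 5 largest members the shares were 11.7% in E8.5 EC, 11.1% in E9.5 EC, 10.3% in E9.5 HE and 10.9% in pro-HSC/HPC, and with the ribosomal proteins outside the rule it was 13.3% in pro-HSC/HPC.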
